A study of Mus musculus with 155 samples.

Results

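The Notch pathway genes described here were 3 receptors (Notch1, Notch2 and Notch3), 4 ligands (Dll1, Dll3, Jag1 and Jag2) and 3 target genes (Hes1, Hes5 and Hey1), chosen by name, which makes 10 of the 55471 genes in the count tables. Their levels were followed across mouse ESCs, RA-treated cells and OPC cultures of KH2 lines, which carry an extra copy of H3.3 with a SNAP and HA tag under a Dox-inducible promoter. The lines expressed H3.3K27M (lysine 27 changed to methionine), H3.3K27L (lysine 27 changed to leucine) or, as controls, WT-H3.3, and every library, controls included, was made after Dox was given. The 32 ESC libraries were 8 for each of the 3 lines and 8 for WT-H3.3 cells given GSK343, an inhibitor of the methyltransferase of Polycomb Repressive Complex 2, with 2 replicates at each of 4, 8, 24 and 72 h of Dox. The 6 RA libraries were 1 of each of these 3 lines at 24 and 72 h of Dox, in cells that had been given retinoic acid without LIF or the 2i inhibitors. In the methods retinoic acid lasts 4 days, and the paper starts the 72 h of Dox 24 h after it. The time in retinoic acid of the 24 h libraries is not stated. Time in Dox and time in retinoic acid therefore cannot be told apart in these cells. The 4 OPC libraries were 1 each of WT-H3.3 and H3.3K27M cultures at 24 and 72 h of Dox, differentiated through embryoid bodies toward oligodendrocyte progenitors. In the methods the embryoid bodies were given retinoic acid and purmorphamine, and their cells were then plated in OPC medium. Retinoic acid was thus part of both the RA and the OPC protocols. Each line is a clone or clones of KH2 cells in which the methods name a possible duplication of chromosome 8, a chromosome that holds none of the 10 genes and was left out of the tests.

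In Notch signaling, a Delta or Jagged ligand on the surface of a cell binds a Notch receptor on its neighbor, and gamma-secretase then cuts the receptor and frees its intracellular domain. This domain joins the DNA-binding protein RBPJ and a Mastermind coactivator at target genes, among them the Hes and Hey genes, which encode bHLH repressors. In the developing nervous system Notch signaling is known for keeping progenitors undifferentiated and for favoring glial over neuronal fates.

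Total counts ran from 68378 to 21161392 in the ESC libraries, with a median of 8434332, from 2239137 to 22269533 in RA-treated cells and from 7499258 to 12387113 in OPC cultures. The lowest total belonged to replicate 2 of the H3.3K27L ESCs at 72 h, in which 1 count is worth 14.6 CPM (a gene's counts scaled to a library total of 1000000), so its values are read with and without it. In the second replicates of H3.3K27L ESCs the genes of chromosome 8 held 3.43 to 4.07% of the counts, and in the other 28 ESC libraries 5.61 to 6.0%, so these 4 libraries stand apart and results that rest on them are also given with them left out, a choice made after the data were seen. Levels are CPM of the total counts of a library and are not divided by gene length, so they are compared between libraries and not between genes. Differences are log2 fold changes from edgeR's quasi-likelihood test with p-values adjusted over all genes tested, and called genes are those past an adjusted p of 0.05 with a fold above 2 or below 0.5. The methods name a 3′ and a whole-transcript library kit without saying which library was made with which, so a comparison across stages or Dox times and a change of kit cannot be told apart. The summed level of 6 pluripotency markers was 3730 to 5270 CPM in ESCs (without the shallow library) and 82.3 to 302 CPM in RA-treated cells. In OPC cultures it was 91.3 to 99.1 CPM in the WT-H3.3 line and 20.3 to 20.4 CPM in the H3.3K27M line. Of these markers Pou5f1, Tdgf1 and Dppa5a were at 0 in every OPC library.

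In OPC cultures, H3.3K27M cells had more Dll1, Dll3 and Hes5 and less Jag1 and Hey1 than WT-H3.3 cells. Of the 10 genes 9 passed the filter on low counts, and 3 were called higher and 2 lower, where 28.0% of the 12511 genes tested were called, 13.0% higher and 15.0% lower. Their median log2 difference was 0.55, and it was 0.00 over all genes tested. The libraries of a line here are its 2 Dox times, so the spread within a line holds the effect of Dox time. The OPC columns of 72 h carry another replicate number than their labels, and whether the 2 libraries of a line came from separate cultures is not known.

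Among the receptors, Notch1 stood at 2.5 and 2.0 CPM in WT-H3.3 cultures (24 and 72 h) and at 3.87 and 3.73 CPM in H3.3K27M cultures. The difference of 0.76 on the log2 scale did not pass the test (SE 0.35, adjusted p = 0.0876, edgeR). Notch2 was 46.7 and 45.4 CPM in WT-H3.3 cultures and 39.5 and 28.7 CPM in H3.3K27M cultures, a log2 difference of -0.43 that also missed the threshold (SE 0.17, adjusted p = 0.0542, edgeR). Notch3 was 22.8 and 24.2 CPM against 29.2 and 39.0 CPM, and its difference of 0.55 passed the adjusted p but not the fold (SE 0.19, adjusted p = 0.0285, edgeR). For each receptor the 2 lines did not overlap, and none of them was called. How often 2 against 2 libraries lacked overlap over all genes was not counted.

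The Delta-like ligands were both higher in H3.3K27M cultures. Dll1, which activates receptors on neighboring cells, was at 1.70 CPM (24 h) and 4.57 CPM (72 h) in WT-H3.3 cultures and at 13.5 and 16.6 CPM in H3.3K27M cultures, a log2 difference of 2.30 (SE 0.37, adjusted p = 0.00041, edgeR). Dll3, a divergent family member known to stay largely inside the cell and not to activate receptors, went from 2.74 and 5.43 CPM to 29.9 and 20.2 CPM, a log2 difference of 2.64 (SE 0.31, adjusted p = 4.61e-05, edgeR). Both H3.3K27M libraries lay above both WT-H3.3 libraries for either gene, which was likewise not counted over all genes. Jag1, a Jagged ligand, lay the other way. It was at 144 and 110 CPM in WT-H3.3 cultures and at 39.1 and 50.2 CPM in H3.3K27M cultures, and its log2 level fell by 1.49 (SE 0.17, adjusted p = 4.22e-05, edgeR). Jag2 was near zero in every OPC library, with 9 counts over the 2 WT-H3.3 libraries and 1 count over the 2 H3.3K27M libraries, and was not tested.

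The 3 target genes went 3 ways. Hes5, a repressor typical of neural progenitors, was at 9.04 and 15.8 CPM in WT-H3.3 cultures and at 58.1 and 67.2 CPM in H3.3K27M cultures, a log2 difference of 2.35 (SE 0.24, adjusted p = 1.5e-05, edgeR). Hey1, a related repressor, was at 75.2 and 66.6 CPM in WT-H3.3 cultures and at 3.73 and 3.97 CPM in H3.3K27M cultures, and its log2 level fell by 4.18 (SE 0.19, adjusted p = 9.31e-08, edgeR). Hes1, the most broadly used of the target genes, was at 134 and 133 CPM in WT-H3.3 cultures and at 135 and 128 CPM in H3.3K27M cultures, with a log2 difference of -0.01 (SE 0.12, adjusted p = 0.943, edgeR). The values of Hes1 overlapped between the lines, and those of Hes5 and Hey1 lay far apart in opposite directions.

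**Figure D1:**
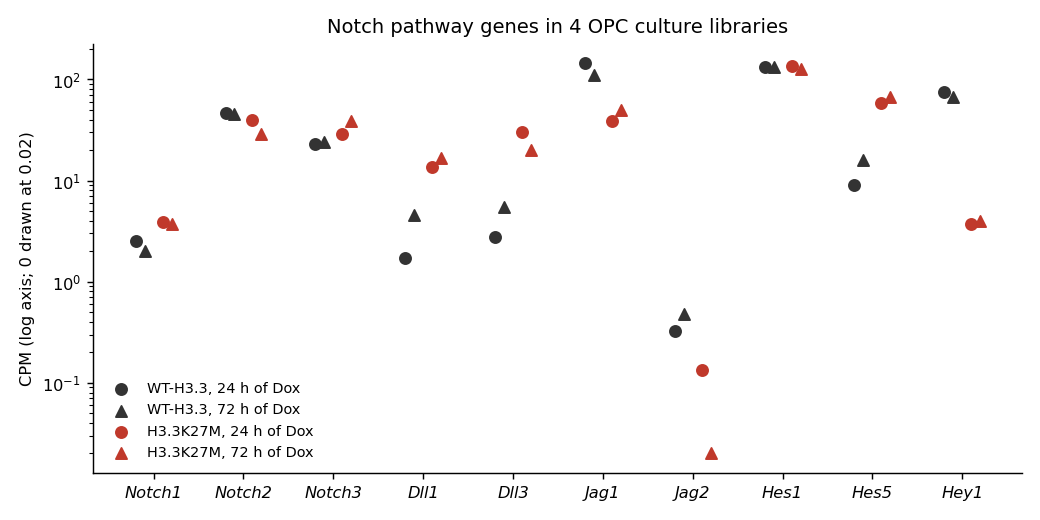
CPM of the 10 genes (log axis) in the 4 OPC culture libraries, with WT-H3.3 in dark grey and H3.3K27M in red, circles for 24 h and triangles for 72 h of Dox, 1 library per point. The H3.3K27M points lie above the WT-H3.3 points for Dll1, Dll3 and Hes5 and below them for Jag1 and Hey1, and the points of Hes1 coincide at 128 to 135 CPM.

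The sequences in front of a gene that rose, a ligand that rose and a ligand that fell are shown so that the letters bound by RBPJ can be looked for where the genes differ. RefSeq promoters on GRCm38.p6, another build than that of the counts, matched 8 of the 10 genes (all but Hes1 and Hey1), and the 250 bases in front of each start were searched for TGGGAA on both strands, with matches in capitals. In Hes5 (chr4:154960673-154960922, plus strand) there were 2 matches, from 226 to 221 bases in front of the start on the opposite strand and from 82 to 77 bases in front of it on the strand of the gene. None was found in Dll3 (chr7:28301786-28302035, minus strand), in Jag1 (chr2:137116521-137116770, minus strand) or in the promoters of the other 5 genes.
Hes5: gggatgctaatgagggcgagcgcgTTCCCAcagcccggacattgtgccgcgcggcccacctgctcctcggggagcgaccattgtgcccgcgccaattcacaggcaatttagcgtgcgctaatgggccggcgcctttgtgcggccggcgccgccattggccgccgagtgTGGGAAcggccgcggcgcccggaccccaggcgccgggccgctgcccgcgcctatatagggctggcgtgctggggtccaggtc
Dll3: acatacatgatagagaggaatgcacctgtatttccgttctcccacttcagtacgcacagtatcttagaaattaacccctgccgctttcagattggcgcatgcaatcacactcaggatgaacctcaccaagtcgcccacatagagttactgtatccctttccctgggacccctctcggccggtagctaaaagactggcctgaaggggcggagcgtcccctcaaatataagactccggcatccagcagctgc
Jag1: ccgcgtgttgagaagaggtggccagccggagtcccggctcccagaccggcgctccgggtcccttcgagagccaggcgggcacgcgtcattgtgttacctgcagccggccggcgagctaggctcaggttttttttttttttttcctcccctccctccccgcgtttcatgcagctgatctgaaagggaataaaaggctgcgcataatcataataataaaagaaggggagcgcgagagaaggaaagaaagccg
Of the 32851 promoters in the table, 21.6% hold at least 1 match in these 250 bases and 2.77% hold 2 or more. A match is a description of the letters, and its absence says only that they are not in this window.

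Cell type markers moved with these differences. The summed level of 8 OPC markers was 481 to 506 CPM in WT-H3.3 cultures and 1620 to 1750 CPM in H3.3K27M cultures, of which 5 rose, among them Olig1, Olig2 and Cspg4, and 2 fell (Pdgfra and Sox10) among 7 tested. Pdgfra, the receptor by which these progenitors are usually recognized, was at 14.4 to 21.6 CPM in WT-H3.3 cultures and at 0.533 to 0.723 CPM in H3.3K27M cultures. Sox10 was low in both, at 1.78 to 3.14 CPM and 0.133 to 0.482 CPM. These 2 markers were thus close to absent in the H3.3K27M cultures, while 5 others of the list were higher there. The 8 fibroblast markers summed to 537 to 603 CPM in WT-H3.3 cultures and 21.9 to 26.8 CPM in H3.3K27M cultures, with 7 of 8 called lower. Extraembryonic endoderm markers (8 genes) summed to 105 to 144 CPM and 15.2 to 19.7 CPM, endothelial markers (7 genes) to 15.7 to 25.5 CPM and 2.53 to 6.53 CPM, astrocyte markers (8 genes) to 1180 to 1210 CPM and 1390 to 1810 CPM, neuron markers (6 genes) to 176 to 191 CPM and 214 to 284 CPM, and neural progenitor markers (7 genes) to 2950 to 3290 CPM and 3260 to 4340 CPM, in WT-H3.3 and H3.3K27M cultures. Within the astrocyte list Gfap was at 22.2 to 31.0 CPM in WT-H3.3 cultures and at 0 to 0.267 CPM in H3.3K27M cultures. The part of these markers in the differences of Notch genes was not tested, and in bulk libraries fewer cells of a type and less RNA per cell cannot be told apart.

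Of 55 other listed pathway genes (other receptors and ligands, secretase subunits, glycosyltransferases, trafficking factors, the nuclear complex and further targets), 47 were tested, 7 were called higher and 4 lower in H3.3K27M cultures, 11 in all where 28.0% of all genes were called, with a median log2 difference of 0.05. Hes6, a Hes family member that counteracts Hes1, was at 118 to 123 CPM in WT-H3.3 cultures and at 448 to 585 CPM in H3.3K27M cultures, a log2 difference of 2.11 (SE 0.15, adjusted p = 1.18e-06, edgeR). Neurl1a, a ubiquitin ligase of the Neuralized family, was higher by 2.07 (adjusted p = 2.6e-05, edgeR), and Maml2, a Mastermind coactivator, by 1.05 (adjusted p = 0.000217, edgeR). Dlk1, a Delta-like protein that lacks the receptor-binding domain of the classic ligands, was at 123 to 181 CPM in WT-H3.3 cultures and at 6.27 to 6.86 CPM in H3.3K27M cultures, and fell by 4.52 (SE 0.23, adjusted p = 2.01e-07, edgeR). The other named genes that were lower were Dtx3l, a Deltex-like ubiquitin ligase (log2 difference -1.72, adjusted p = 0.000256, edgeR), and Dlk2, a relative of Dlk1 (log2 difference -2.05, adjusted p = 0.00703, edgeR).

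In ESCs, 1 of the 10 genes was called between lines, Jag2 in H3.3K27L cells. Hes5 was at or near zero in every ESC library, with 26 counts over all 32, and was not tested, which left 9 genes in these comparisons. In H3.3K27M ESCs none of the 9 was called over all Dox times (n = 8 each) or at 24 and 72 h (n = 4 each), where 0.0142% (0.00710% in each direction) and 0% of the 14076 genes tested were called. In this comparison 1612 genes had an unadjusted p under 0.05 over all times and 590 at 24 and 72 h, and DESeq2 called 9 and 0 genes. Over all times the log2 differences ran from -0.48 (Dll3) to 0.52 (Notch3, SE 0.19, adjusted p = 0.285, edgeR). In WT-H3.3 ESCs given GSK343 none was called either, against 0% over all times and 0% at 24 and 72 h, where 621 and 138 genes had an unadjusted p under 0.05 and DESeq2 called 0 in both. There the log2 differences over all times ran from -1.5 (Dll1, SE 0.96, 12 counts against 43) to 0.42 (Hey1), with adjusted p of 0.975 or above. Jag2 differed from untreated cells by 0.31 (SE 0.16) and Hes1 by 0.19 (SE 0.13).

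In H3.3K27L ESCs, Jag2 was the only one of the 9 genes called, against 3.46% of all genes tested (2.83% lower). Its level ran from 13.9 to 41.6 CPM in WT-H3.3 cells (median 21.5) and from 6.63 to 14.6 CPM in H3.3K27L cells (median 11.9). In H3.3K27L cells 7 of the 8 libraries lay below every WT-H3.3 library, and the remaining one is the shallow library, whose 14.6 CPM is 1 count. The log2 level of Jag2 fell by 1.04 (SE 0.17, adjusted p = 0.000463, edgeR), and by 1.04 without the shallow library (adjusted p = 0.000862, edgeR). With the 4 second H3.3K27L replicates left out it fell by 1.23 (SE 0.20, adjusted p = 0.000696, edgeR), and it was at 6.63, 7.47, 12.2 and 12.2 CPM in the first replicates and at 11.5, 10.3, 13.6 and 14.6 CPM in the second ones (4, 8, 24 and 72 h). The fold lay so close to the limit that 6 of 16 libraries left out in turn ended the call, 5 of them through the fold (the first WT-H3.3 replicates of 4, 8 and 72 h and the first H3.3K27L replicates of 4 and 8 h, -0.98 to -0.94) and the deeper H3.3K27L replicate at 72 h through the adjusted p of 0.0817. A replicate block with the numbers of H3.3K27L crossed also ended the call through the fold (-0.99, adjusted p = 6.33e-06, edgeR). In the other groups Jag2 was at 15.2 to 35.0 CPM (H3.3K27M) and 18.7 to 40.3 CPM (GSK343), and both ranges lie above that of H3.3K27L without its shallow library, 6.63 to 13.6 CPM. A test of H3.3K27L against those groups was not made.

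At 24 and 72 h, Jag2 was at 12.2, 13.6, 12.2 and 14.6 CPM in H3.3K27L cells and at 22.7, 20.3, 41.6 and 26.0 CPM in WT-H3.3 cells (24 h, then 72 h), with no overlap. It fell by 1.08 (SE 0.26, adjusted p = 0.0491, edgeR), with 0.547% of all genes called (0.476% lower and 0.0710% higher), and the call was lost with any of the 8 libraries left out (adjusted p up to 0.627). It was also lost with the second H3.3K27L replicates left out (adjusted p = 0.0527), with DESeq2 size factors (0.0517), with chromosome 8 kept (0.0555) and with library totals (0.0568), and with the crossed block through the fold (-0.98). Jag1 lay on the other side. Over all Dox times it was at 28.1 to 45.3 CPM in H3.3K27L cells (median 31.5) and at 17.9 to 31.9 CPM in WT-H3.3 cells (median 24.8), and the 2 ranges overlapped. Its log2 difference of 0.47 passed the adjusted p but not the fold (SE 0.13, adjusted p = 0.0272, edgeR), and with the second H3.3K27L replicates left out it was 0.33 and passed neither (adjusted p = 0.141, edgeR). At 24 and 72 h it was 0.35 and passed neither (adjusted p = 0.581, edgeR). Jag1 has an exonic length of 5827 bases, above the upper quartile of 5517, where the median difference of H3.3K27L was 0.11, and the part of length was not tested. Of the other pathway genes 44 were tested over all times and Dlk1 alone was called, at 0.97 to 3.29 CPM in WT-H3.3 cells and 0 to 0.789 CPM in H3.3K27L cells (log2 difference -2.12, SE 0.38, adjusted p = 0.000999, edgeR). The shallow library is at 0 in this range and cannot resolve such levels. The call of Dlk1 was not followed with that library or the second H3.3K27L replicates left out.

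**Figure D2:**
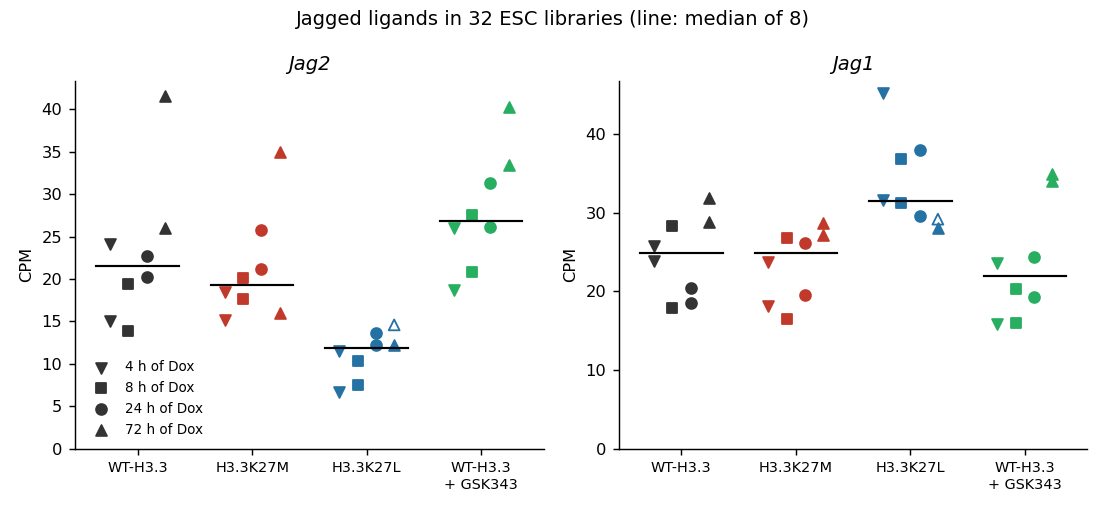
CPM of Jag2 (left) and Jag1 (right) in the 32 ESC libraries by line and treatment, with the marker shape for the Dox time, a horizontal line for the median of 8 libraries and an open symbol for the shallow H3.3K27L library. Jag2 in H3.3K27L cells has a median of 11.9 CPM against 21.5 CPM in WT-H3.3 cells, and Jag1 a median of 31.5 CPM against 24.8 CPM.

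Over the 4 ESC groups, Notch3 rose with the time in Dox. Notch3 was at 10.3 to 33.8 CPM at 4 h (median 12.5, n = 8) and at 23.5 to 58.5 CPM at 72 h (median 32.3, n = 8). Its rise of 1.04 on the log2 scale was the only call of the 9 genes (SE 0.20, adjusted p = 0.00143, edgeR), where 4.01% of all genes were called (2.58% higher and 1.43% lower), and it was 1.03 without the shallow library (adjusted p = 0.00206, edgeR). The ranges overlapped through the second H3.3K27M replicate at 4 h, the highest library of that time at 33.8 CPM, and 3 libraries each brought the fold under the limit when left out (0.91 and 0.93 for the first H3.3K27M replicates of 4 and 72 h, 0.99 for the second GSK343 replicate of 4 h), as did leaving out the 4 second H3.3K27L replicates (0.99, adjusted p = 0.00953, edgeR). Leaving out the deeper H3.3K27L library of 72 h left its shallow replicate to stand for the group, and Hes1, at 0 counts there, was then called lower (-3.17, adjusted p = 0.00525, edgeR). The medians at 8 and 24 h, 15.8 and 23.1 CPM, lay between those of 4 and 72 h. Notch1 (log2 difference 0.59, adjusted p = 0.0451, edgeR) and Jag2 (0.57, adjusted p = 0.0176, edgeR) passed the adjusted p but not the fold, and Notch2 passed neither (0.43, adjusted p = 0.0612, edgeR). The 72 h against 4 h difference correlated with exonic length over 12810 genes (Spearman 0.419), and the longest genes, above an upper quartile of 5517 bases, had a median of 0.26. The exonic lengths of Notch1, Notch2 and Notch3 are 14232, 10506 and 8044 bases, which puts them among those, and the part of length in these differences was not tested.

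In RA-treated cells no member was called between lines, and 5 were called between Dox times. With the Dox times of a line as its replicates (n = 2), none of the 9 genes tested was called for either mutant line, against 0% and 0% of 12265 genes, where 15 and 187 genes had an unadjusted p under 0.05 and DESeq2 called 0 and 5. Libraries of the same Dox time varied together, and in a fit blocked by Dox time 2 genes were called for H3.3K27M and 451 for H3.3K27L, none of them among the 9. In that fit Hes1 was higher in H3.3K27L than in WT-H3.3 cells by 0.64 on the log2 scale, past the adjusted p but not the fold (SE 0.16, adjusted p = 0.0362, edgeR), at 71.9 against 42.6 CPM at 24 h and 188 against 133 CPM at 72 h. Notch1 was at 24.8 against 44.4 CPM at 24 h and 0.306 against 0.893 CPM at 72 h, a difference that did not pass the test (log2 difference -0.84, SE 0.27, adjusted p = 0.0817, edgeR). For H3.3K27M the largest blocked difference among the 9 genes was that of Hes1, 0.36 (SE 0.16, adjusted p = 0.804, edgeR).

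Between 24 and 72 h of Dox in RA-treated cells, 1 of the 9 genes rose and 4 fell, where 42.2% of all genes were called, 19.7% higher and 22.5% lower. The time in retinoic acid may differ between these libraries as well, and its part was not tested. With library totals in place of TMM, 34.0% of the called genes were higher in place of 46.6%, and the same 5 members were called. The members' median log2 difference was -0.17, and it was -0.07 over all genes tested. Notch1 was at 44.4, 48.1 and 24.8 CPM at 24 h in the lines (in the order WT, K27M, K27L) and at 0.893, 0.644 and 0.306 CPM at 72 h, 5 counts over the 3 libraries. All 3 lines dropped, with a log2 difference of -5.77 (SE 0.33, adjusted p = 2.41e-08, edgeR). Jag2 went from 37.0, 43.7 and 33.9 CPM to 10.3, 4.51 and 3.67 CPM and fell by 2.49 (SE 0.28, adjusted p = 6.47e-06, edgeR). The other receptors dropped less. Notch2 went from 127, 146 and 83.3 CPM to 50.0, 47.3 and 42.8 CPM and fell by 1.07 (SE 0.16, adjusted p = 6.43e-05, edgeR). Notch3 went from 202, 168 and 135 CPM to 59.4, 85.3 and 44.7 CPM and fell by 1.19 (SE 0.16, adjusted p = 3.35e-05, edgeR).

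Hes1 moved against the receptors, from 42.6, 53.9 and 71.9 CPM at 24 h to 133, 181 and 188 CPM at 72 h, and rose by 1.83 (SE 0.13, adjusted p = 1.88e-07, edgeR). The 3 libraries of 24 h did not overlap those of 72 h for any of these 5 genes, and the share of all genes without overlap was not counted. Dll1, Dll3, Jag1 and Hey1 overlapped between the times and had log2 differences from -0.17 to 0.62 that did not pass the test. The call of Notch2 was lost without the H3.3K27M library of 24 h (-0.91) or of 72 h (-0.88), and that of Notch3 without the WT-H3.3 culture at 72 h (-0.98), in each case through the fold. Hes5 was not tested, with 7 counts at either time.

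The libraries of 72 h were shallower (2239137 to 3268238 counts) than those of 24 h (5050115 to 22269533 counts). The 72 h against 24 h difference correlated with exonic length over 11244 genes (Spearman -0.338), with a median of 0.66 under the lower quartile of length (2416 bases) and -0.52 above the upper one (5822 bases). Hes1 has an exonic length of 2037 bases, under the lower quartile, and the 3 receptors lie above the upper one, so length moved with their directions and its part was not tested. Hey1, at 2203 bases, also lies under the lower quartile and Jag1, at 5827 bases, above the upper one. Their log2 differences of 0.148 and 0.105 did not pass the test. Jag2, at 4054 bases, lies between the quartiles. Extraembryonic endoderm markers summed to 1040 to 7220 CPM at 24 h and 625 to 1880 CPM at 72 h, against 37.7 to 146 CPM in ESCs, and fibroblast markers to 264 to 431 CPM and 51.1 to 161 CPM, and their part was not tested either.

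**Figure D3:**
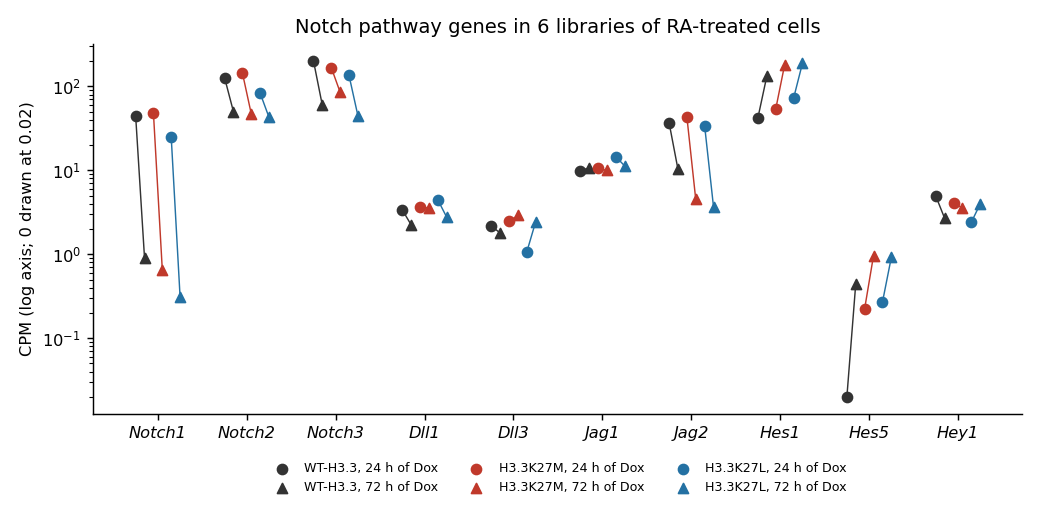
CPM of the 10 genes (log axis) in the 6 libraries of RA-treated cells, with circles for 24 h and triangles for 72 h of Dox joined by a line within each line of cells. Notch1 drops from 24.8 to 48.1 CPM to under 1 CPM in all 3 lines, Jag2, Notch2 and Notch3 drop less, and Hes1 rises to 133 to 188 CPM.

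Of the other pathway genes tested in this comparison (42), 5 were called higher and 10 lower at 72 h, where 19.7% and 22.5% of all genes were. Dlk1 rose by 2.08 (71.9 to 178 CPM at 24 h and 259 to 711 CPM at 72 h, adjusted p = 7.73e-08, edgeR), Neurl1b, a ubiquitin ligase, by 3.40 (adjusted p = 3.76e-07, edgeR) and Hes6 by 1.78 (adjusted p = 9.95e-07, edgeR). Ncstn, the gamma-secretase subunit nicastrin, fell by 2.73 (117 to 139 CPM at 24 h and 15.3 to 16.4 CPM at 72 h, adjusted p = 2.88e-08, edgeR). The ubiquitin ligase Itch fell by 2.09 (adjusted p = 8.22e-07, edgeR).

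Across stages, the 24 and 72 h libraries of the 3 lines were compared in a model with stage, Dox time and line (22 libraries, 14574 genes). From ESCs (12 libraries) to RA-treated cells (6 libraries), 3 of the 10 genes were called higher and 2 lower, where 48.3% of all genes were called, 22.2% higher and 26.1% lower. The median of all genes was -0.13, and with DESeq2 size factors it was 0.16, the share of called genes that were higher went from 46.0% to 57.1%, and Notch2 (1.11), Hes1 (1.11) and Hey1 (1.36) were called higher as well. Since several members differed between the RA Dox times, their stage differences depended on the time taken, a comparison added after the data were seen. Notch1, at 25.8 to 88.9 CPM in these ESCs (median 49.0), was lower in RA-treated cells by 3.52 on average (adjusted p = 1.63e-09, edgeR). At 24 h the difference was -0.59 and did not pass the test (adjusted p = 0.0724, edgeR), and at 72 h it was -6.45 (adjusted p = 8.7e-10, edgeR).

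Notch3 rose from 20.4 to 58.5 CPM in ESCs (median 27.6, and at most 46.3 without the shallow library) to 44.7 to 202 CPM in RA-treated cells, with a log2 difference of 1.65 (SE 0.14, adjusted p = 1.06e-09, edgeR), more at 24 h (2.36) than at 72 h (0.94, under the fold). Notch2 was higher by 0.82, past the adjusted p but not the fold (adjusted p = 1.79e-05, edgeR), and by 1.40 at 24 h, past both (adjusted p = 1.48e-06, edgeR). Hes1 was higher by 0.82, under the fold (adjusted p = 3.12e-05, edgeR), with -0.22 at 24 h (adjusted p = 0.38, edgeR) and 1.86 at 72 h (adjusted p = 7.07e-08, edgeR). Jag2, at -0.65 on average under the fold (adjusted p = 0.014, edgeR), changed sign with time, at 0.77 for 24 h (adjusted p = 0.0178, edgeR, under the fold) and -2.06 for 72 h (adjusted p = 2.75e-05, edgeR).

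Dll1 and Jag1 kept their calls at both times. Dll1 went from 0 to 1.55 CPM in ESCs (median 0.247) to 2.23 to 4.42 CPM, with no overlap and a rise of 2.57 (SE 0.54, adjusted p = 2e-04, edgeR). Jag1 went from 18.6 to 38 CPM (median 28.4) to 9.90 to 14.6 CPM, also with no overlap, and fell by 1.46 (SE 0.22, adjusted p = 3.48e-06, edgeR). Dll3 was at 1.07 to 2.90 CPM in RA-treated cells and within the range of ESCs, 0.449 to 4.82 CPM without the shallow library (log2 difference -0.25, adjusted p = 0.633, edgeR), and Hey1 was at 2.41 to 4.95 CPM against 0 to 2.89 CPM (0.449 or more without the shallow library) without passing the test (1.06, adjusted p = 0.0522, edgeR). Hes5 was called higher (fitted log2 difference 2.61, adjusted p = 0.00606, edgeR), which rests on 14 counts in RA-treated cells and 7 in ESCs, and at 24 h alone its difference was -0.18 (adjusted p = 0.894, edgeR). In the WT-H3.3 line alone Hes5 was not called, and its fitted difference of 0.40 had an SE of 648, so no difference could be estimated there. The 6 ESC libraries of 72 h held 0 counts of Hes5 among 46596431, and the RA libraries of 72 h held 1 (WT-H3.3), 3 (H3.3K27M) and 3 counts (H3.3K27L), too few for a fold.

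In OPC cultures 6 of the 10 genes were called higher than in ESCs and 2 lower, where 66.3% of all genes were called, 30.4% higher and 35.9% lower. The median of all genes was -0.15, or 0.20 with DESeq2 size factors, and the same 8 members were called with either. Hes5 had the largest rise, with 9.04 to 67.2 CPM in OPC cultures and at most 0.243 CPM in these ESC libraries (adjusted p = 5.56e-12, edgeR), and at 72 h it was at least 246-fold higher in WT-H3.3 cultures and 1040-fold higher in H3.3K27M cultures than a floor of 3 counts over the ESC libraries of 72 h. Dll1 was higher by 4.03 (SE 0.52, adjusted p = 3.14e-07, edgeR), Hey1 by 4.01 (SE 0.49, adjusted p = 1.3e-07, edgeR) and Jag1 by 1.79 (SE 0.22, adjusted p = 1.27e-07, edgeR). All 4 OPC libraries lay above the 12 ESC libraries for each of these, which was not counted over all genes. The model gives a line 1 effect shared by all stages, while the lines differed in OPC cultures. In the WT-H3.3 line alone the rises were 2.78 (Dll1), 5.27 (Hey1) and 2.44 (Jag1). In H3.3K27M OPC cultures Hey1 was at 3.73 and 3.97 CPM, against at most 2.89 CPM in these ESCs. Hes1, at 128 to 135 CPM against 0 to 61.3 CPM (median 47.0), was higher by 1.67 (SE 0.17, adjusted p = 4.57e-09, edgeR), and the ESC library at 0 is the shallow one, without which the range began at 35.9 CPM. Dll3 was higher by 2.53 over both lines (adjusted p = 2.09e-05, edgeR), and by 0.59 in the WT-H3.3 line alone, where it was not called (adjusted p = 0.113, edgeR).

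Jag2 and Notch1 were the members that were lower. Jag2 was at 0 to 0.476 CPM in OPC cultures, 10 counts in all, against 12.2 to 41.6 CPM in ESCs (median 20.7), and fell by 6.48 (SE 0.41, adjusted p = 2.76e-12, edgeR). Notch1 was at 2.0 to 3.87 CPM and fell by 4.02 (SE 0.31, adjusted p = 7.93e-11, edgeR). Notch2 and Notch3 overlapped between OPC cultures and ESCs, with log2 differences of 0.08 (SE 0.17) and -0.06 (SE 0.18) that did not pass the test.

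Against RA-treated cells, 5 genes were called higher in OPC cultures and 2 lower, where 43.6% of all genes were called, 20.2% higher and 23.3% lower. With library totals in place of TMM the median of all genes went from -0.09 to -0.37 and the share of called genes that were higher from 46.4% to 35.4%. Jag1 (3.25), Hes5 (6.81), Dll3 (2.79), Hey1 (2.96) and Dll1 (1.46) had positive log2 differences, and Jag2 (-5.84) and Notch3 (-1.71) negative ones. In the WT-H3.3 line alone Hey1 was higher by 4.44 and Jag1 by 3.78. The call of Dll1 was lost in the WT-H3.3 line alone (0.19, adjusted p = 0.816, edgeR), at either Dox time alone, and when 1 of 6 libraries was left out (either H3.3K27M library of RA-treated cells or of OPC cultures, or the WT-H3.3 or H3.3K27L library of RA-treated cells at 72 h), with values from 0.67 to 1.5. With library totals in place of TMM it was lost as well (1.16, adjusted p = 0.0963, edgeR). The call of Notch3 was lost at 72 h alone through the fold (-0.94, adjusted p = 0.0112, edgeR). That of Dll3 was lost in the WT-H3.3 line alone (1.13, adjusted p = 0.0771, edgeR). Notch1 again depended on the time, at -3.34 for 24 h and 2.34 for 72 h (adjusted p = 0.0181, edgeR), where RA-treated cells had under 1 CPM. WT-H3.3 OPC cultures held fibroblast markers at 537 to 603 CPM and RA-treated cells extraembryonic endoderm markers at 625 to 7220 CPM, so markers of other cell types moved with these stages, and their part was not tested.

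**Figure D4:**
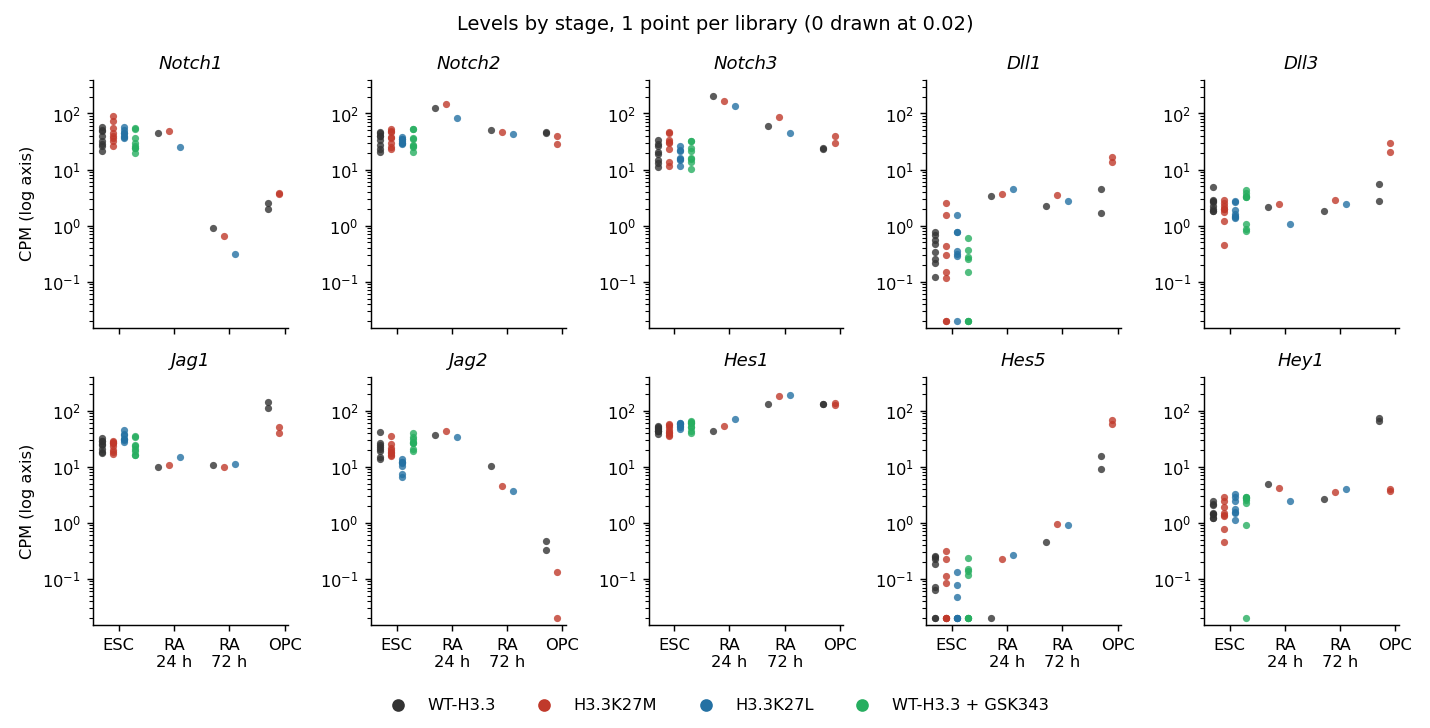
CPM (log axis, 0 drawn at 0.02) of each of the 10 genes in ESCs (31 libraries, without the shallow one), RA-treated cells at 24 and 72 h of Dox and OPC cultures, 1 point per library, colored by line or treatment. Notch1 and Jag2 end lowest in RA-treated cells of 72 h and OPC cultures, Hes5 is highest in OPC cultures, and Dll1, Hey1 and Jag1 are split by line there.

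In order of level, the groups could be told apart for some genes only. The median of Notch1 fell from 49.0 CPM (ESCs at 24 and 72 h) to 44.4 CPM (RA, 24 h), 3.12 CPM (OPC) and 0.644 CPM (RA, 72 h), and the first pair did not differ beyond its spread. That of Hes1 rose from 47.0 CPM (ESCs) and 53.9 CPM (RA, 24 h), which overlapped, to 133 CPM (OPC) and 181 CPM (RA, 72 h), which overlapped as well. That of Jag1 rose from 10.7 CPM in RA-treated cells to 28.4 CPM in ESCs (24 and 72 h) and 80.3 CPM in OPC cultures. Neighbors did not overlap among these libraries. The OPC median lies between the lines, at 144 and 110 CPM in WT-H3.3 cultures and 39.1 and 50.2 CPM in H3.3K27M cultures. Outside these ESCs, the second H3.3K27L replicate of 4 h was at 45.3 CPM, above the H3.3K27M OPC library at 39.1 CPM.

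Of the 49 other pathway genes tested across stages, 14 were called higher and 9 lower in RA-treated cells than in ESCs (48.3% of all genes were called), 17 higher and 13 lower in OPC cultures than in ESCs (66.3% of all genes), and 9 higher and 7 lower in OPC cultures than in RA-treated cells (43.6% of all genes). From ESCs to RA-treated cells, the coactivator Maml3 (6.42), the ubiquitin ligase Dtx4 (4.81) and Neurl1b (4.22) had the lowest adjusted p among the genes that rose, and the acetyltransferase Kat2b (-2.33), the receptor Notch4 (-4.20) and the ubiquitin ligase Dtx1 (-2.53) among those that fell. In OPC cultures Dtx4 (6.84), Neurl1b (7.74) and Dner, a transmembrane protein with Notch-like repeats (7.54), rose over ESCs, while Itch (-2.16), Kat2a (-2.08) and Kat2b (-1.77) fell. Over RA-treated cells, Dner (8.42), Neurl1b (3.52) and the glycosyltransferase Lfng (4.24), which modifies receptors, rose in OPC cultures, and Maml1 (-1.37), Itch (-1.23) and Ncstn (-1.46) fell.

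Whether the difference between a mutant line and WT-H3.3 cells, called its effect here, changed with stage was tested with an interaction term at 24 and 72 h. In OPC cultures and RA-treated cells each line has 1 library per Dox time. The mutation, the clone and the differentiation run therefore cannot be told apart in this effect. Between OPC cultures and ESCs, 3 of the 10 genes were called, where 17.3% of all genes were (7.82% higher and 9.48% lower). The H3.3K27M effect on Hey1 was lower in OPC cultures by 3.55 (SE 0.49, adjusted p = 8.88e-06, edgeR) and that on Jag1 by 1.5 (SE 0.31, adjusted p = 0.000773, edgeR), while that on Dll3 was higher by 3.34 (SE 0.54, adjusted p = 6.28e-05, edgeR). In ESCs of 24 and 72 h the difference of Hey1 was -0.61, that of Jag1 0.07 and that of Dll3 -0.65, none of which passed the test. The interactions of Hes5 (3.27, adjusted p = 0.0595, edgeR) and Dll1 (2.44, adjusted p = 0.072, edgeR) missed the threshold, with few counts of either gene in ESCs. Dll1 was called without the second WT-H3.3 (2.80) or H3.3K27M (4.75) ESC replicate of 24 h, and Hes5 without the first H3.3K27M ESC replicate of 24 h (5.23). Between RA-treated cells and ESCs none of the 10 was called by edgeR for H3.3K27M (0% of all genes, with 606 at an unadjusted p under 0.05 and 2 called by DESeq2) or for H3.3K27L (0.240% of all genes). Among 49 other pathway genes, the H3.3K27M effect was higher in OPC cultures for 7 and lower for 4, among them Hes6 (2.61), Neurl1a (2.05) and Kat2a (1.02) above and Dlk1 (-4.47), Dlk2 (-4.75) and Neurl3 (-6.64) below.

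**Figure D5:**
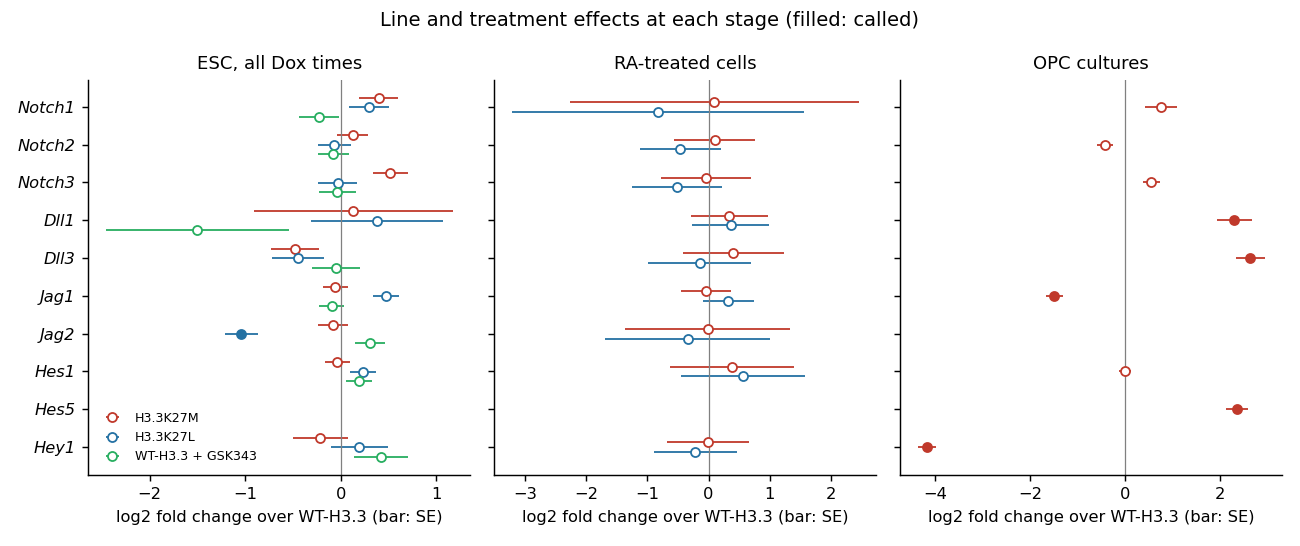
Log2 fold change over WT-H3.3 cells with its standard error for the 10 genes in ESCs over all Dox times (left), RA-treated cells (middle) and OPC cultures (right), with filled symbols for called genes and separate axes. Jag2 in H3.3K27L ESCs at -1.04 is the only filled symbol before the OPC cultures, where Hey1 lies at -4.18 and Dll3 at 2.64.

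Over all 42 libraries, the genes whose pattern was most like that of a member, by the Pearson correlation of log2(CPM + 1), were Rybp (0.974) and Tmem201 (0.968) for Notch1, Myh10 (0.911) and Pacs2 (0.909) for Notch2, and Myh10 (0.918) and Cdon (0.912) for Notch3. For the ligands they were Iglon5 (0.907) and Clic5 (0.905) for Dll1, Unc5a (0.837) and Rab3b (0.822) for Dll3, Hlf (0.857) and Nr1d1 (0.852) for Jag1, and Tcfl5 (0.932) for Jag2. For the targets they were Sec22b (0.975) and Mogs (0.973) for Hes1, Grm5 (0.989) and Pcdhb6 (0.986) for Hes5, and Il4ra (0.902) and Vgf (0.902) for Hey1. The libraries share stage, depth and line, so these values describe likeness across the 3 stages and carry no test.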

How the data were processed

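Per the labels, the authors aligned reads with STAR 2.7.1 to mm9, and they deposited 3 tables of counts, not normalized, for 55471 genes in 42 libraries of RNA-seq. For 32589 genes the identifier without its version was matched to the NCBIM37 annotation (the genome of mm9), from which exonic lengths and chromosomes were taken. Symbols came from a reference list of gene names, and from that annotation where the list had none. The 1435 matched genes of chromosome 8 (5.78% of counts) were left out of the tests, as in the methods, and unmatched genes stayed in. ChIP-seq and human data were not analysed here. The 10 genes lie on NCBIM37 at chr2:26313423-26372183 (Notch1), chr3:97817461-97954290 (Notch2), chr17:32257765-32303825 (Notch3), chr17:15504318-15513836 (Dll1), chr7:29076673-29087257 (Dll3), chr2:136907192-136942380 (Jag1), chr12:114146801-114167706 (Jag2), chr16:30064470-30067882 (Hes1), chr4:154335032-154336480 (Hes5) and chr3:8663362-8667039 (Hey1).

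Counts were tested with edgeR 4.0.16 (TMM, filterByExpr, quasi-likelihood F test, two-sided) in R 4.3.3 with limma 3.58.1, and with DESeq2 1.42.0 as an alternative. The ESC fit held all 32 libraries and 1 mean per group at each time (14076 genes), the RA fit a mean per line (12265 genes) or per Dox time with line as a term (11719 genes), the OPC fit a mean per line (12511 genes), and the stage and interaction fits 22 libraries (14574 genes). The Benjamini-Hochberg adjustment ran over all genes of a comparison, in 17 comparisons, and the standard error is the log2 fold change divided by the square root of F. Scripts were tested on simulated counts. Replicates were made weeks apart per the methods, and RA and OPC lines have 1 library per Dox time, so those tests measure the spread between times or lines. No 2 libraries were copies.

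Replicate numbers were checked by the correlation of differences between replicates over 8389 genes. For ESCs of H3.3K27M against WT-H3.3 the values were 0.622, 0.721, 0.615 and 0.715 at 4, 8, 24 and 72 h, so the numbers pair these lines. For H3.3K27L they were -0.606, -0.715, -0.687 and 0.26, so at 4, 8 and 24 h its replicates differed in the direction opposite to those of WT-H3.3. The numbers as labelled therefore do not pair these lines. For GSK343 they were 0.00389, -0.305, -0.467 and 0.587, with no constant sign, so the numbers were not read as pairs. Changes between Dox times under RA correlated at 0.944 (H3.3K27M) and 0.933 (H3.3K27L) with WT-H3.3, and those of OPC cultures at 0.291 over 8325 genes.

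The members, the lists of other pathway genes and the markers were chosen with earlier results of these data known. The 10 members are named throughout, and of the other pathway genes up to 3 in each direction with the lowest adjusted p among those called. Some genes that this rule or the marker lists would name are not reported here. Alternatives changed the tool, size factors, filter, chromosome 8, block and libraries in the model, and left out each library in turn. Library totals in place of TMM, crossed numbers of H3.3K27L, fits with the second H3.3K27L replicates left out and stage contrasts of 1 Dox time were added after seeing the data. Promoters are from RefSeq, GRCm38.p6, and figures were drawn with Matplotlib 3.10.9 (Python 3.11.15, pandas 2.3.3, NumPy 2.4.6).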

Additional observations from a re-analysis of the deposited data

Results flagged for a closer look

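Dixon's criterion for a library far from the others is met by chance in about 1 of 20 groups of like libraries. The groups here mix Dox times and, in RA-treated cells and OPC cultures, lines, so that rate need not hold. In groups of 4 to 8 libraries, 6 of 60 combinations of a gene and a group had a library past the criterion. Of these, 3 were replicate 2 of the H3.3K27L ESCs at 72 h, the library of 68378 counts, with Notch3 at 58.5 CPM (others 11.8 to 26.8 CPM), Dll3 at 14.6 CPM (others 1.38 to 2.7 CPM) and Hes1 at 0 CPM (others 47.8 to 61.3 CPM), where 14.6 CPM is 1 count. In WT-H3.3 ESCs, Dll3 was at 4.82 CPM in replicate 1 of 24 h (others 1.79 to 2.86 CPM) and Jag2 at 41.6 CPM in replicate 1 of 72 h (others 13.9 to 26.0 CPM). In RA-treated cells, Jag1 was at 14.6 CPM in the H3.3K27L library of 24 h (others 9.90 to 11.3 CPM).

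The H3.3K27M effect differed between OPC cultures and ESCs by the interaction test for Hey1 (-3.55), Jag1 (-1.5) and Dll3 (3.34). OPC markers, in both directions, and fibroblast, endoderm and endothelial markers differed between the same OPC cultures, and their part was not tested.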

How the results depend on the processing

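Of 954 recomputed values of single genes, covering 47 results, 876 kept their direction and side of the threshold, 43 lost a call, 29 gained 1 and 6 changed sign. The number of members called stayed within 1.5 times of the stated one except as follows. For H3.3K27L ESCs over all times, where 1 was called, crossing the numbers of H3.3K27L in the replicate block (added after seeing the data, since replicates correlated negatively at 3 of 4 times) gave 0, and leaving out a library gave 0 to 1. At 24 and 72 h it went from 1 to 0 with DESeq2 size factors, with chromosome 8 kept, with library totals, with the crossed block, with the second H3.3K27L replicates left out and in every fit without 1 library. For 72 h against 4 h in ESCs, where 1 was called, leaving out the second H3.3K27L replicates gave 0 and a single library 0 to 2, and the value of Dll3 ran from -1.05 to 0.016 (-0.72 with all). For RA-treated cells against ESCs, DESeq2 and its size factors each gave 8 where 5 were called. At 24 h only, that comparison changed sign for Jag2 (0.77), Hes1 (-0.22) and Hes5 (-0.18), and at 72 h only, OPC cultures against RA-treated cells did so for Notch1 (2.34) and Hes1 (-0.052). The replicate block called 0, 1 and 0 members for H3.3K27M, H3.3K27L and GSK343 ESCs over all times, as without it, and 5 in OPC cultures, and changed no other call of a member. In ESCs this block is a single term shared by all groups, while the numbers did not pair H3.3K27L or GSK343 with WT-H3.3 cells. Its result there is therefore no check of pairing. Over all genes the block gave 24 calls for H3.3K27M ESCs over all times (2 without), where DESeq2 gave 9 and no filter 159, and 154 for H3.3K27L at 24 and 72 h (77 without), where no filter gave 318 and leaving out the second H3.3K27L replicates 158. No filter gave 769 for H3.3K27L over all times (487 with, and 737 with those replicates left out), 25 for GSK343 (0 with) and 46 for H3.3K27M at 24 and 72 h (0 with). For the H3.3K27L effect between RA-treated cells and ESCs (35), DESeq2 gave 144, no filter 172 and leaving out those replicates 129, and for that of H3.3K27M (0) no filter gave 26. The causes were not tested. Depth limits Hes5 and Dll1 in ESCs, Jag2 in OPC cultures and Notch1 in RA-treated cells of 72 h, which rest on few counts, and the RA and OPC lines have 1 library per Dox time.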
